A study of Mus musculus with 48 samples.

Results

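The mouse genome carries 3 Period genes, Per1, Per2 and Per3, and all 3 were measured here among 17097 genes with a named probe set. They were chosen by symbol alone: every probe set annotated with exactly 1 symbol, equal to Per1, Per2 or Per3, was taken, which gave 8 of the 45141 probe sets on the array. For each gene the brightest of its probe sets, by the mean of the 48 arrays, was used, and the others served as a check. The arrays hold RNA of epidermal stem cells (EpSCs), the cells that renew the outer layer of the skin, collected through 1 day from wild-type female C57B6/J mice of 2 ages. Aged mice were 102 to 116 weeks old and young mice 8 weeks old. Both ages were sampled every 4 h from ZT0 to ZT20 (ZT counts hours from lights on, which is ZT0), with 4 mice at each age and time. The series asks how daily expression in these cells differs between old and young animals, and the Period genes were followed over the 6 times in both.

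The Period proteins are the negative arm of the circadian clock: CLOCK and its partner BMAL1 (the product of Arntl) switch on the Period and Cryptochrome genes through E-box sites, and PER and CRY proteins then enter the nucleus and shut their own activators down. Per1 and Per2 are also acute response genes, which glucocorticoid hormone and cyclic AMP signalling can induce directly, and through which tissue clocks are set by cues from the body. Per3 is regarded as the member the core loop can spare, and its RNA follows the clock closely in most mouse tissues.

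In the mouse genome (RefSeq annotation, GRCm38.p6) Per1 lies on chromosome 11 from 69095108 to 69109965, Per2 on chromosome 1 from 91415977 to 91459351 and Per3 on chromosome 4 from 150997018 to 151044707. Per1 was read by 1 probe set, Per2 by 2 and Per3 by 5, and another Per2 probe set that carries more than 1 symbol was left out by the rule. Promoter windows in the RefSeq table covered 2 members, Per1 with 2 annotated starts and Per3 with 1. Both Per1 windows lie inside the span of the gene given above, so the stretch before 69095108 is not covered. First and second count only the Per1 starts that have a window. Per2 is named only. The 250 bases before each start follow, read along the gene's strand, since clock, DBP-family and cyclic AMP factors can act on such stretches. Capitals mark every match to the motifs searched.
Per1, first start, chr11:69098699-69098948, plus strand: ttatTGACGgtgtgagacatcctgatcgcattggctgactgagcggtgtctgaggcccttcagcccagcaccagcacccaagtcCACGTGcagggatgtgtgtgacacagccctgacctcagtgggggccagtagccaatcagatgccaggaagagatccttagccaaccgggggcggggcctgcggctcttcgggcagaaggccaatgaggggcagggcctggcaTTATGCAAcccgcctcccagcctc
Per1, second start, chr11:69099902-69100151, plus strand: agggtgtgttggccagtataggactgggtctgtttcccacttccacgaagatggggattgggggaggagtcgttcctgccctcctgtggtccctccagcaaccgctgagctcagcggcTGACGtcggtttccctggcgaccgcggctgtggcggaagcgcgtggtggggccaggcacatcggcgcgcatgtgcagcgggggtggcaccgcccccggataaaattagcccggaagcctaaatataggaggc
Per3, chr4:151044666-151044915, minus strand: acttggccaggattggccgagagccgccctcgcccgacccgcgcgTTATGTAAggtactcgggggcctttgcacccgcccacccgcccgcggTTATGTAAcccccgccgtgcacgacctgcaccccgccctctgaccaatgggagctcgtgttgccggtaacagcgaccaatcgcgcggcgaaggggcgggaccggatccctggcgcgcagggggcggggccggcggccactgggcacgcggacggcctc

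The motifs were the E-box CACGTG, the E-prime-box CACGTT, the D-box TTATGNAA, which DBP, TEF and HLF bind, the cyclic AMP response element TGACGTCA and its shortened form TGACG, each searched on both strands (the shortened form is also part of the full element). The window of the first Per1 start held 1 E-box, beginning 166 bases before the start, 1 D-box at 24 bases and 1 shortened element at 246 bases. The second Per1 start had 1 shortened element at 132 bases. The Per3 window held 2 D-boxes, at 205 and 158 bases, and no match to the other motifs. Among 32851 promoter windows of the same length in the table, 6.02% held an E-box, 3.85% an E-prime-box, 3.07% a D-box, 1.55% a full cyclic AMP element and 17.8% its shortened form, and 0.128% held at least 2 D-boxes. A match is a stretch of letters and does not show that a factor binds there.

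Signals are given on the log2 scale throughout, so a difference of 1 is a doubling. Array medians lay between 4.78 and 5.04. The arrays of lowest weight in limma, which counts less the arrays that fit their group poorly over all genes, were aged ZT12 replicate 1 (0.25), young ZT0 replicate 2 (0.29), young ZT4 replicate 1 (0.33) and young ZT0 replicate 3 (0.46); values without these 4 are given where they matter. All 8 markers of basal keratinocytes were above the dim limit of 3.96, and the log2 of their summed signal was 14.65 to 14.86 in aged and 14.68 to 14.81 in young arrays. Of the 5 markers of the hair follicle bulge, Sox9, Nfatc1 and Lhx2 were above that limit, while Cd34 and Lgr5, which define the bulge, were below it. These are RNA measurements of cell pools, in which fewer cells of a type and less RNA per cell cannot be told apart.

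Per1, a repressor of the clock that hormones can also induce, was higher in aged than in young cells at ZT4, and its daily course differed between the ages. At ZT0 the 4 aged mice had 9.88, 9.66, 9.87 and 8.79, against 9.56, 9.65, 8.94 and 9.27 in young mice. At ZT4 the values were 10.01, 10.15, 10.20 and 9.92 in aged mice and 9.47, 8.97, 8.72 and 9.61 in young mice. Every aged mouse was thus above every young mouse at ZT4, while the ages overlapped at ZT0. At ZT8 Per1 was at 9.60, 9.59, 9.22 and 10.11 in aged mice and at 10.15, 9.87, 10.20 and 10.10 in young mice. At ZT12 it had 10.35, 9.97, 9.71 and 10.13 in aged against 10.16, 9.88, 10.11 and 10.19 in young mice. At ZT8, 3 of the aged mice lay below every young mouse and the remaining 1 among them, and at ZT12 the ages shared the same range. At ZT16 the aged mice had 9.90, 9.89, 10.08 and 9.76 and the young mice 9.81, 9.62, 9.76 and 9.73. At ZT20 they had 9.55, 9.33, 9.18 and 9.59, against 8.91, 8.91, 9.02 and 9.13 in young mice. The ages overlapped at ZT16 and not at ZT20, where all aged mice were again higher. Of all 12823 genes tested, 6.14% had every aged array above every young array at ZT4, and 3.28% had this at ZT20.

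Averaged over the 4 mice, Per1 at ZT4 was 10.07 ± 0.13 in aged and 9.19 ± 0.42 in young cells (SD), a difference of 0.88 ± 0.18 (SE) or 1.84-fold. Per1 rose at ZT4 past the test (limma contrast at that time, adjusted p = 0.00146). At ZT8 the difference had the opposite sign, -0.45 ± 0.18 (adjusted p = 0.247), and at ZT20 it was 0.42 ± 0.18 (adjusted p = 0.348), neither past the test. With 1 mean per age and time, the shape of the Per1 course differed between aged and young cells (limma F test of the interaction of age and time, adjusted p = 0.0230). Among the members, 1 of 3 passed this test, where 2.59% of all genes did. The difference in course did not pass without all ZT4 arrays (adjusted p = 0.265) or without all ZT8 arrays (0.208). It also missed the threshold without aged ZT8 replicate 3 (0.0540), young ZT4 replicate 2 (0.0538) or young ZT4 replicate 3 (0.0567), and was 0.00779 without the 4 arrays of lowest weight.

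Per2, the repressor whose loss alone disturbs behavioural rhythms in mice, was higher in aged cells at ZT4 and in its mean over the day, while its group means at ZT12 and ZT16 lay close together. At ZT0 the aged mice had 6.39, 6.32, 6.29 and 5.35 and the young mice 5.66, 5.34, 5.44 and 5.62. At ZT4 Per2 was at 6.96, 7.09, 5.92 and 6.28 in aged against 5.56, 4.97, 5.52 and 5.50 in young mice. At ZT0, 3 aged mice were above every young mouse and 1 was level with the lowest, and at ZT4 all 4 were above. At ZT8 the aged mice had 6.85, 6.44, 6.71 and 6.71, against 6.35, 6.26, 6.91 and 6.39 in young mice. At ZT12 the values were 7.95, 6.90, 7.66 and 7.35 in aged and 7.62, 7.46, 7.48 and 7.41 in young mice. The ages overlapped at both times, and the young mice at ZT12 lay closer together than the aged ones. At ZT16 Per2 had 7.40, 7.28, 7.67 and 7.22 in aged and 7.76, 7.36, 7.32 and 7.26 in young mice. At ZT20 it was at 6.75, 6.87, 6.62 and 6.71 in aged and at 6.28, 5.78, 6.33 and 6.34 in young mice. All aged mice were above all young mice at ZT20, and the ages overlapped at ZT16.

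The ZT4 mean of Per2 was 6.56 ± 0.55 in aged and 5.39 ± 0.28 in young cells (SD, n = 4 each), 2.25-fold higher in aged cells, or 1.17 ± 0.21 on the log2 scale (SE; limma, adjusted p = 1.89e-04). The difference was 0.57 ± 0.21 at ZT0 (adjusted p = 0.104) and 0.56 ± 0.21 at ZT20 (0.251). It was -0.025 at ZT12 and -0.032 at ZT16 (adjusted p = 0.977 and 0.971). Over the whole day Per2 was higher in aged cells by 0.41 ± 0.09 (95% confidence interval 0.23 to 0.59; limma, adjusted p = 6.32e-04), and by 0.30 without the ZT4 arrays of both ages (adjusted p = 0.0188). Per2 was the 1 member of 3 whose level over the day was called higher, where 9.89% of all genes were called higher and 18.6% in either direction. The interval for Per1 was 0.013 to 0.38 (adjusted p = 0.131; a difference of 0.011 without the ZT4 arrays, adjusted p = 0.960), and that for Per3 was -0.20 to 0.38 (adjusted p = 0.728). The daily course of Per2 had an adjusted p of 0.0521 for a difference between the ages. It was 0.430 without the ZT4 arrays, and it passed in several other settings, given in the closing section.

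The second Per2 probe set, 1417602_PM_at, gave a wider separation at ZT4. It had 6.94, 6.39, 4.59 and 5.29 in aged mice, against 3.76, 3.65, 3.13 and 3.65 in young mice. All young values at ZT4 were below the dim limit and no aged value was. Per2 was higher in aged cells past the test with this probe set too, at ZT4 (limma, adjusted p = 7.22e-06) and over the day (adjusted p = 6.74e-05), but with the young mice below that limit it gives no fold at ZT4.

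Per3, the member that is dispensable for behavioural rhythm in mice, had the widest swing of the 3 genes by the probe sets used, though not with all probe sets averaged, and its highest group mean was at ZT12 at both ages. At ZT0 the aged mice had 5.27, 5.03, 4.39 and 5.42, against 4.92, 6.07, 5.18 and 5.53 in young mice. At ZT4 Per3 was at 6.24, 5.85, 5.64 and 5.43 in aged and at 5.57, 5.39, 5.99 and 6.26 in young mice. These are its lowest times at both ages, and the ages overlapped at each. At ZT8 the aged mice had 7.62, 7.53, 7.20 and 8.19 and the young mice 6.83, 7.69, 6.88 and 8.29. At ZT12 the values were 8.60, 9.82, 8.26 and 9.42 in aged and 8.78, 8.32, 9.02 and 8.74 in young mice. At ZT12, 2 aged mice were above every young one, and the other values overlapped. At ZT16 it was at 7.89, 8.26, 7.95 and 7.85 in aged and at 8.27, 8.63, 7.96 and 7.38 in young mice. At ZT20 the aged mice had 6.46, 6.39, 7.23 and 8.09, against 6.50, 7.07, 6.81 and 5.79 in young mice. The ages overlapped at all 6 times, and the aged mice at ZT20 were spread over more than those at ZT16 (SD 0.79 and 0.18).

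No difference between the ages in Per3 passed at any time. The estimates ran from -0.40 ± 0.35 at ZT0 to 0.50 ± 0.35 at ZT20 (SE; limma, adjusted p from 0.607 to 0.988), and that at ZT4 was -0.015 ± 0.35. At ZT4 itself, 2 of 3 members were thus higher in aged cells past the test, where 3.84% of all genes were higher and 8.21% differed in either direction. At the other 5 times 0 of 3 members passed, where 5.19% of genes differed in either direction at ZT0, 2.14% at ZT8, 1.31% at ZT12, 3.3% at ZT16 and 1.36% at ZT20. Whether the ZT4 difference of Per3 is smaller than those of Per1 and Per2 was not tested.

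**Figure D1:**
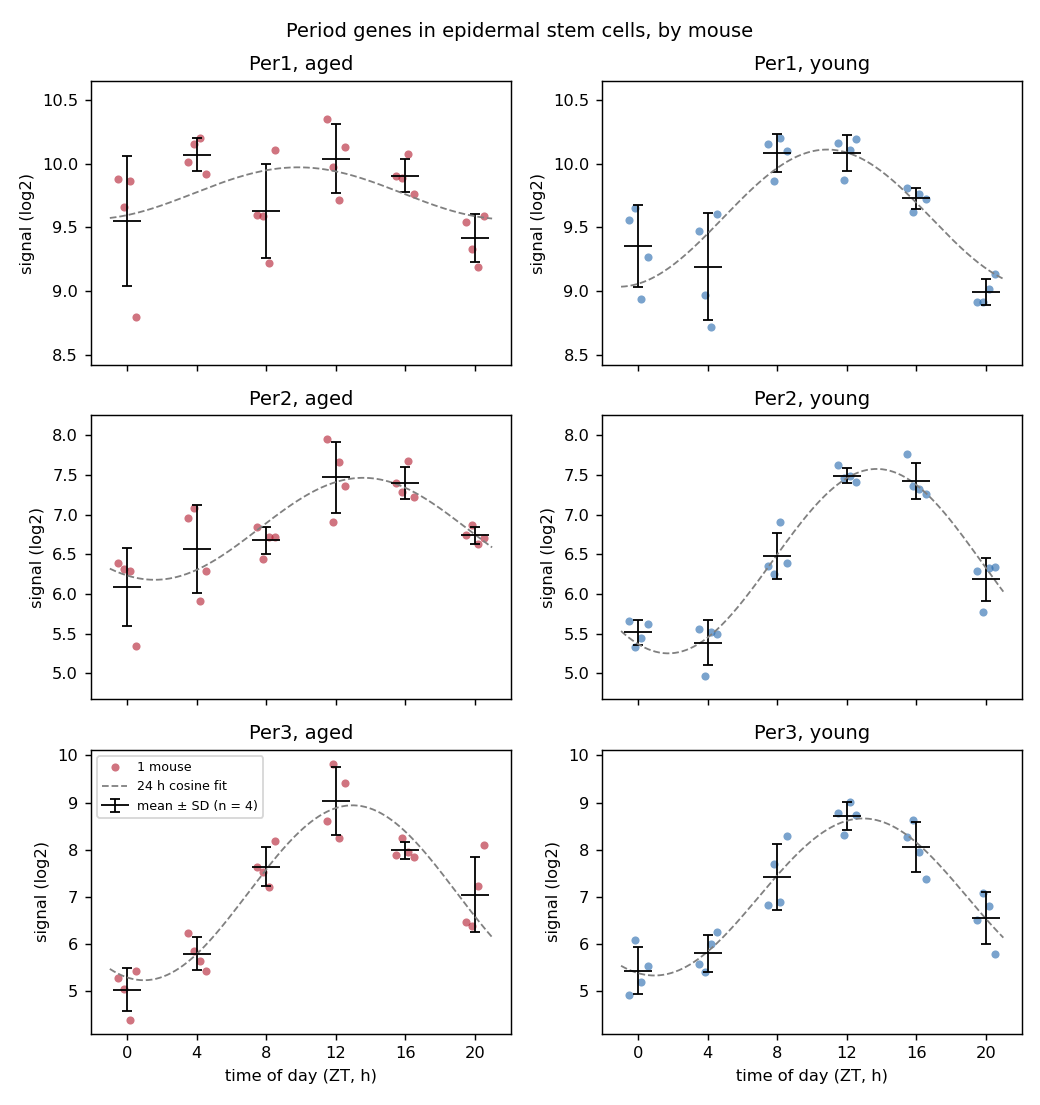
Signal (log2) of Per1, Per2 and Per3 (rows) against time of day (ZT, h) in aged (left) and young (right) cells; each point is 1 mouse, black bars are the mean ± SD of 4 mice and dashed lines the fitted 24 h cosine, with the same vertical range for both ages of a gene. Per3 is highest at ZT12 and lowest at ZT0 in both columns, while Per1 at ZT4 stands at 10.07 in aged and 9.19 in young cells, well above and below the dashed line.

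**Figure D2:**
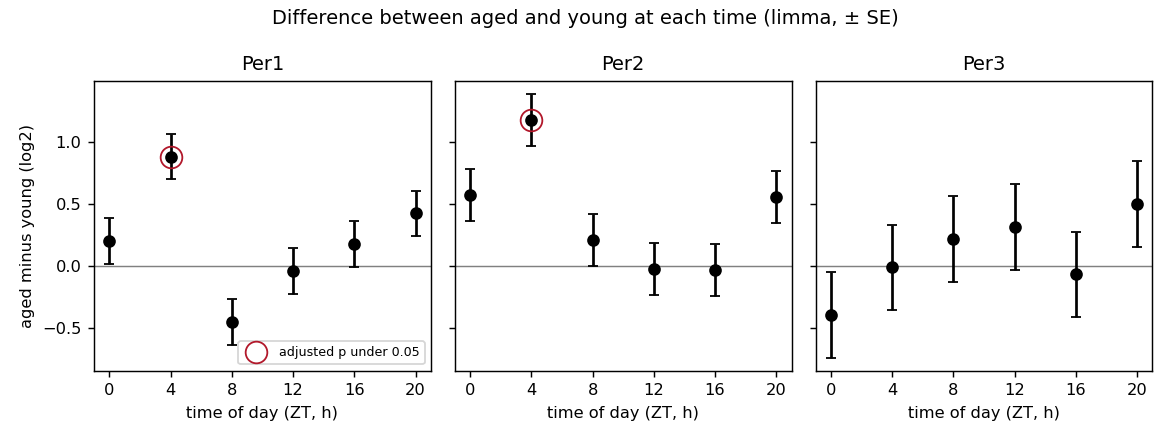
Difference of aged minus young (log2, limma estimate ± SE, 4 mice per age) at each time of day for the 3 genes; a red ring marks an adjusted p under 0.05. The rings are at ZT4 for Per1 (0.88) and Per2 (1.17), and no point of Per3 has one.

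Ordered by group mean, the 6 times ran differently by age in Per1 and Per2 and in 1 order in Per3. In aged cells the group means of Per1 ran from ZT4, the highest, through ZT12, ZT16, ZT8 and ZT0 to ZT20, a log2 range of 0.66. In young cells the order was ZT12, ZT8, ZT16, ZT0, ZT4 and ZT20, with a range of 1.09. ZT4 was thus the highest time for Per1 in aged cells and the second lowest in young cells. For Per2 the order was ZT12, ZT16, ZT20, ZT8, ZT4 and ZT0 in aged cells (a range of 1.38) and ZT12, ZT16, ZT8, ZT20, ZT0 and ZT4 in young cells (2.10). Per3 ran through ZT12, ZT16, ZT8, ZT20, ZT4 and ZT0 at both ages, over a log2 range of 4.00 in aged and 3.29 in young cells.

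Most neighbours in these orders overlapped between mice. Of 30 neighbouring pairs (5 per gene and age), 7 did not overlap and reached the smallest exact p that 4 mice against 4 allow, 0.0286 (exact permutation test, 2-sided). None passed after adjustment over the 30 (lowest adjusted p = 0.122). With that smallest p, an adjusted p under 0.05 needs most of the 30 pairs to reach it, so this outcome says little. Since the order was read from the same values, these p values only describe it. How many such pairs other genes have was not counted. In aged cells the pairs that did not overlap were ZT16 and ZT20 for Per2, and ZT12 and ZT16, ZT20 and ZT4, and ZT4 and ZT0 for Per3. In young cells they were ZT8 and ZT16 for Per1, and ZT16 and ZT8 as well as ZT20 and ZT0 for Per2. The spread between mice of 1 group, as the root mean square of the group SDs, was 0.30 in aged and 0.24 in young cells for Per1, 0.37 and 0.23 for Per2, and 0.53 and 0.51 for Per3.

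A cosine with a period of 24 h gave the rhythm of each gene. In aged cells Per2 and Per3 were rhythmic, 2 of 3 members where 1.36% of all genes were, and in young cells all 3 were, where 6.27% were (limma F test of cosine and sine, n = 24 arrays each). With the probe sets used, the fitted peak of Per3 was 13.1 times its trough in aged and 10.1 times in young cells, and by amplitude it was first of 12823 genes in aged and second in young cells. With all probe sets of a gene averaged, the amplitude of Per3 was 0.865 in aged and 0.863 in young cells, below the 0.900 and 1.53 of Per2. The fitted peak of Per2 was 2.44 times its trough in aged and 5.01 times in young cells, ranks 15 and 7 by amplitude. For Per1 the ratio was 1.33 in aged cells, where it did not pass (adjusted p = 0.542), and 2.11 in young cells (adjusted p = 3.19e-04), ranks 1094 and 80. Both ages were rhythmic in 0.811% of all genes, among them Per2 and Per3.

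The amplitude, from mean to peak on the log2 scale, had a 95% interval for aged minus young that lay below 0 in Per1 (-0.59 to -0.077) and Per2 (-0.77 to -0.27), which is so for 2.22% of all genes. These intervals are not adjusted for the number of genes. Below 0 too were those of the clock genes Npas2 and Nr1d2 and the glucocorticoid-induced Fkbp5, Tsc22d3, Klf9 and Pdk4. Those of the other tested genes in these 2 lists, described below, included 0. The Per1 estimate of -0.34 was -0.080 without ZT8, -0.55 without ZT0 and -0.53 with array weights, and the Per2 estimate of -0.52 was -0.34 without ZT4. The interval for Per3 was -0.22 to 0.60. The test of the whole 24 h rhythm between the ages passed in none of the 3 (limma F test, adjusted p = 0.606, 0.235 and 0.961 for Per1, Per2 and Per3), and in 0% of all genes, where 982 genes had an unadjusted p under 0.05, array weights gave 4 calls and the fit with a 12 h component 29. Without ZT20, ZT16 or ZT12 there were 27, 15 and 6 calls, and 0 to 4 with 1 array left out; the members passed in none of these fits. In the fit with 1 mean per age and time, all 3 members varied over the day in aged cells (8.36% of all genes) and in young cells (17.5%), Per1 in aged cells with an adjusted p of 0.0356. The call for Per1 in aged cells was lost with cyclic loess (adjusted p = 0.0594), with aged arrays fitted alone (0.0996), and without any 1 of aged ZT4 replicates 1, 2 and 3, ZT12 replicate 4 and ZT20 replicates 2 and 3 (0.0532 to 0.0802). A 12 h component, whose own test was added after seeing the data, was 0.27 ± 0.08 for Per1 in aged cells, with its first peak at ZT2.81, and 0.15 ± 0.08 in young cells. It passed in 0 of 3 members at either age (limma, lowest adjusted p = 0.0873, that of Per1 in aged cells), where 5.78% of all genes passed in aged and 4.3% in young cells.

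In young cells the fitted peaks of the family came in the order Per1, Per3, Per2. Per1 peaked at ZT9.84 ± 1.70 in aged and ZT10.86 ± 0.64 in young cells (SE), Per3 at ZT12.96 ± 0.30 and ZT12.92 ± 0.33, and Per2 at ZT13.57 ± 0.53 and ZT13.71 ± 0.29. In aged cells the 24 h rhythm of Per1 did not pass (limma F test, adjusted p = 0.542). Its fitted peak there, and the leads and the shift with age taken from it, thus describe the fit only. Per1 preceded Per3 by 3.12 h in aged cells (95% interval -0.95 to 7.20) and by 2.06 h in young cells (0.67 to 3.46). It preceded Per2 by 3.73 h in aged (-0.052 to 7.52) and by 2.86 h in young cells (1.66 to 4.05). The lead of Per3 over Per2 was 0.61 h in aged (-1.04 to 2.26) and 0.79 h in young cells (-0.067 to 1.65), intervals that include 0. A shift of the peak with age was not detected in any member, but how far it is bounded differed: -0.85 to 0.94 h for Per3, -1.35 to 1.07 h for Per2 and -4.68 to 2.65 h for Per1 (95% intervals of aged minus young).

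The other probe sets had fitted peaks between ZT10.92 and ZT14.01 and amplitudes of other sizes. The second Per2 probe set had an amplitude of 1.16 ± 0.14 in aged and 1.91 ± 0.14 in young cells (SE), above the 0.64 and 1.16 (± 0.09) of the one used, with the same order of ages. Of the 4 further Per3 probe sets, 3 had amplitudes of 0.70 to 0.76 in aged and 0.67 to 0.90 in young cells. The last, 1441445_PM_at, with a mean of 3.79 that is below the dim limit, had 0.31 and 0.23. All 4 were rhythmic at both ages, and the probe set used had 1.86 ± 0.14 in aged and 1.67 ± 0.14 in young cells, so the 13.1-fold swing holds for that probe set alone. The sign of the small amplitude difference of Per3 also varied between probe sets, from -0.17 to 0.19, and the 95% interval of each of the 5 included 0.

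**Figure D3:**
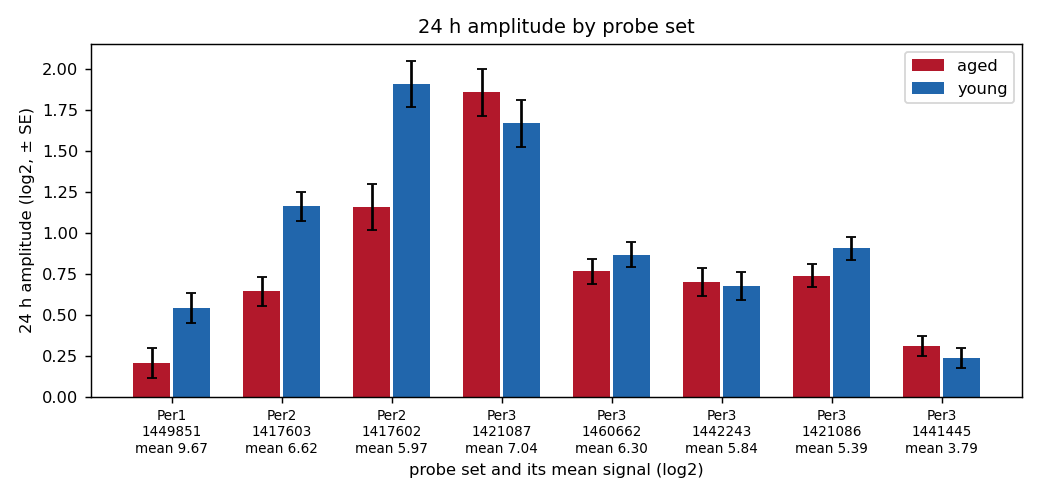
Amplitude of the fitted 24 h cosine (log2, bars ± SE, 24 arrays per age) in aged (red) and young (blue) cells for the 8 probe sets of the Period genes, with the mean signal of each under its name. Both Per2 probe sets are lower in aged cells (0.64 against 1.16, and 1.16 against 1.91), while the sign of the difference varies among the 5 Per3 probe sets.

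Deviations of single mice from their group mean were compared between the Period genes and other genes. Over 48 arrays, with the mean of each age and time removed, the deviations of Per1 and Per2 had r = 0.41 and rho = 0.41 (100000 permutations of mice within groups, adjusted p = 0.174 over 21 pairs tested; r = 0.32 without the 2 arrays farthest from the median). With another probe set of Per2 or Per3 in place of the one used, 3 of 40 pairs passed (permutation test, adjusted over 21 pairs): the second Per2 probe set with Per1 (r = 0.46, adjusted p = 0.0438) and with Tsc22d3 (r = 0.44, 0.0257), and Per3 probe set 1421086_PM_at with Dbp (r = 0.45, 0.0151). For Per1 and Per3 r was 0.068, and for Per2 and Per3 it was -0.22. Besides each other, the members were set against Dbp, Arntl, Cry1, Fkbp5, Tsc22d3 and Fos. With the probe sets used, the only pair of the 21 that passed was Per3 with Fos, an immediate early gene (r = 0.58, rho = 0.55, permutation test, adjusted p = 0.00903; r = 0.51 without the 2 farthest arrays). It was 0.71 in aged mice (adjusted p = 0.0341) and 0.46 in young mice (0.437). With the other Per3 probe sets it did not pass (r from -0.12 to 0.27). The deviations of those probe sets had little relation to those of the probe set used, with r from -0.28 to 0.20. For Per2 the deviations of its probe sets had r = 0.68. Per1 with Tsc22d3, a glucocorticoid-induced leucine zipper protein, had r = 0.48 (adjusted p = 0.0876), with 0.71 in aged mice (adjusted p = 0.0218) and -0.074 in young mice (0.892). Whether these 2 values differ was not tested. The other 16 pairs had r between -0.27 and 0.28 (adjusted p from 0.388 to 0.923).

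The genes whose values ran most like each member across the 48 arrays, after removal of the mean of each age, were not the same for Per1 as for Per2 and Per3. These correlations describe shared daily courses and shared arrays, and the arrays are not independent of time of day. For Per1 they were Wee1 (r = 0.82), a kinase that delays entry into mitosis, Klf9 (0.80), a transcription factor that glucocorticoids induce, Tent5b (0.72), an RNA poly(A) polymerase, Ets2 (0.72), a transcription factor, and Rgcc (0.70), a cell cycle regulator. Per2 came 14th by this measure (0.59) and Per3 65th (0.45). For Per2 the closest were Cipc (0.78), an inhibitor of CLOCK, the mitochondrial superoxide dismutase Sod2 (0.77), the clock output factor Tef (0.77), the repressor Ciart (0.77) and the folate enzyme Mthfd1l (0.76), with Per3 next (0.76). For Per3 they were Mthfd1l (0.89), Tef (0.88), Ciart (0.85), and Wdhd1 (0.79) and Chaf1b (0.78), which act in DNA replication and chromatin assembly.

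At ZT4, 3 of the 5 genes most like Per1 were higher in aged cells too, where 3.84% of all genes were. Wee1 had 10.43, 10.72, 10.61 and 10.70 in aged mice, against 9.26, 9.34, 8.73 and 9.76 in young mice, a difference of 1.34 ± 0.19 (SE; limma, adjusted p = 5.76e-06) or 2.53-fold. Tent5b was at 7.81, 8.32, 7.55 and 7.94 in aged and at 7.42, 6.77, 6.49 and 7.01 in young mice, 0.98 ± 0.23 higher in aged cells (adjusted p = 0.00364). For Rgcc the values were 8.98, 9.20, 9.26 and 8.94 in aged and 8.65, 8.52, 8.26 and 8.49 in young mice (0.61 ± 0.15, adjusted p = 0.00549). In all 3 genes every aged mouse was above every young one at ZT4, as in 6.14% of all genes. Klf9 mice of both ages were narrowly apart at ZT4, with a difference of 0.30 ± 0.12 (adjusted p = 0.118), and Ets2 had 0.097 ± 0.09 (adjusted p = 0.606). The daily courses of Wee1, Klf9 and Tent5b differed between the ages (limma interaction, adjusted p = 0.0019, 0.0409 and 0.00506; 2.59% of all genes), and those of Ets2 and Rgcc did not pass (0.733 and 0.0720). Of the 5 genes most like Per2 and the 5 most like Per3, none passed at ZT4; the smallest adjusted p was that of Cipc (0.36 ± 0.12, adjusted p = 0.0551). Since the likeness was measured on the same arrays, these values show what the pattern consists of and are not separate evidence for it.

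Among the fixed gene lists, the glucocorticoid-induced list held the most genes with a changed course. This list holds genes that the hormone can induce, as it can Per1 and Per2, and the gene of its receptor, Nr3c1. The difference of the list between the ages was already known from these data. All 8 genes were tested, and 4 differed in daily course between the ages, where 2.59% of all genes did: Fkbp5, which binds the hormone receptor and damps it (adjusted p = 0.00186), Tsc22d3 (0.00152), Klf9 (0.0409) and Pdk4, which holds back the use of pyruvate (3.38e-04). At ZT4, 2 of the 8 were higher in aged cells past the test, where 3.84% of all genes were higher and 8.21% differed in either direction. Fkbp5 had 10.42, 9.82, 9.36 and 8.30 in aged mice, against 8.47, 8.03, 8.17 and 8.11 in young mice (1.28 ± 0.39, adjusted p = 0.0344). Pdk4 had 8.60, 6.78, 6.85 and 6.01 in aged and 5.44, 6.48, 5.25 and 5.63 in young mice (1.36 ± 0.36, adjusted p = 0.0117). In both genes 3 aged mice were above every young mouse and 1 was not. Tsc22d3 had 9.89, 9.46, 9.76 and 8.77 in aged and 8.19, 8.01, 8.73 and 8.65 in young mice, with no overlap, and 1.07 ± 0.38 did not pass (adjusted p = 0.0720). The kinase gene Sgk1 had a difference of the opposite sign there, -0.37 ± 0.13 (adjusted p = 0.0708), and the hormone receptor gene Nr3c1 had -0.13 ± 0.15 (0.691). Over the day these 2 of the 8 were lower in aged cells (Sgk1 -0.17 ± 0.06, adjusted p = 0.0289; Nr3c1 -0.28 ± 0.06, 4.70e-04) and 0 were higher, where 18.6% of all genes differed in either direction. The median difference of the list at ZT4 was 0.35, beside -0.016 for all genes tested.

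In daily course and at ZT4 the other lists showed little of this. Of the 9 tested genes of the immediate early and cyclic AMP list (of 10), 0 differed in daily course (2.59% of all genes). At ZT4 0 were higher (3.84% of all genes). The coactivator Crtc1 was lower there (-0.33 ± 0.10, limma, adjusted p = 0.0291), 1 of 9 beside 8.21% of all genes in either direction. The kinase Sik1 had 0.45 ± 0.15 (adjusted p = 0.0503), and the list median was 0.061. Over the day 2 of the 9 were higher in aged cells and 0 lower, where 9.89% of all genes were higher and 18.6% differed in either direction. Mean signals in aged and young cells were 12.16 and 12.22 for Fos, 12.29 and 12.24 for Fosb, and 12.61 and 12.53 for Egr1. The basal marker Krt5 had 12.68 and 12.70. Others of the list were lower, down to Crtc1 (5.62 and 5.67). Whether a difference can be read at signals this high was not tested. Of 13 tested clock partners (of 17), 0 differed in course (2.59% of all genes). The receptor Rora was higher at ZT4 (0.47 ± 0.12, limma, adjusted p = 0.00906), with a list median of -0.027. This 1 of 13 stands beside 3.84% of all genes higher and 8.21% in either direction. Over the day 2 of the 13 were higher in aged cells and 1 lower, beside 9.89% of all genes higher and 18.6% in either direction. Among the clock partners 8 genes were rhythmic in aged and 6 in young cells (1.36% and 6.27% of all genes). Their median amplitude was 0.44 and 0.42, against 0.078 and 0.094 for all genes. Among 12 tested regulators of PER protein (of 14), which hold the casein kinases that mark PER for destruction and its ubiquitin ligases, only Timeless was rhythmic, at both ages; 1 of 12 stands beside 1.36% of all genes in aged and 6.27% in young cells. It had an amplitude of 0.63 ± 0.11 in aged and 0.46 ± 0.11 in young cells (adjusted p = 0.00134 and 0.0162), with its peak at ZT12.77 and ZT12.76. The median amplitude of this list was 0.098 in aged and 0.041 in young cells. Of its genes 0 passed at ZT4 (median -0.031) and 0 in their level over the day. Timeless also acts at replication forks.

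**Figure D4:**
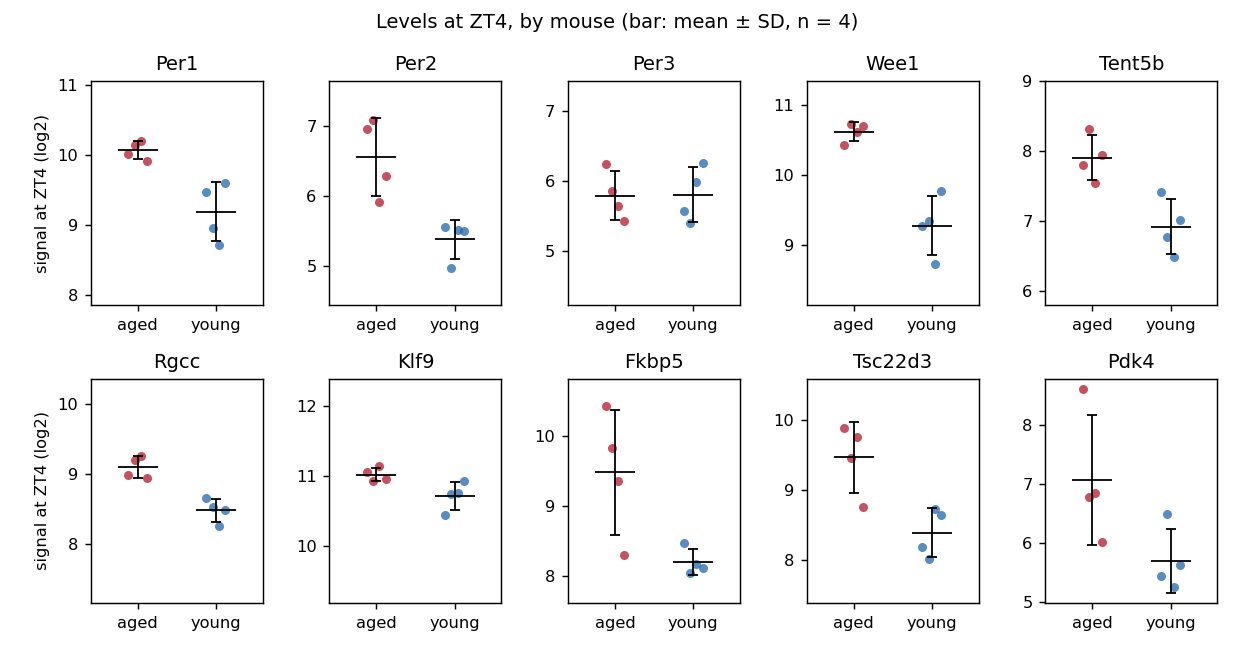
Signal at ZT4 (log2) in aged (left) and young (right) cells. Shown are the Period genes, some of the genes most like Per1 and some of the glucocorticoid-induced list. Each point is 1 mouse and bars are the mean ± SD of 4. Aged and young mice do not overlap in Per1, Per2, Wee1, Tent5b, Rgcc, Klf9 and Tsc22d3. They overlap by 1 aged mouse in Fkbp5 and in Pdk4, and mix in Per3. Ets2, which is also among the genes most like Per1, is not shown (aged minus young 0.097). Of the glucocorticoid-induced list, Sgk1 (-0.37), Nr3c1 (-0.13), Dusp1 (0.14) and Zbtb16 (0.39) are not shown. None of these differences passed the test.

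Some cell type markers also stood apart at ZT4. Of 12 marker lists, the summed signal (log2) of 4 did not overlap between the ages there. That of the bulge list was 10.52 to 10.77 in aged and 10.08 to 10.35 in young arrays, and that of basal keratinocytes 14.78 to 14.85 and 14.72 to 14.77. The melanocyte list had 6.69 to 6.81 in aged and 6.93 to 7.14 in young arrays, with 1 of 5 markers above the dim limit and Dct, Tyr, Mlana and Tyrp1 below it. The Merkel cell list had 5.46 to 5.60 and 5.65 to 6.03, with 1 of 3 markers above it and Krt20 and Atoh1 below. Either direction counted, 14.5% of all genes did not overlap at ZT4. The lists of suprabasal keratinocytes, fibroblasts, endothelium, Langerhans and myeloid cells, T cells, adipocytes, skeletal muscle and red blood cells overlapped. Overlap did not mean equal means. The T cell list had 6.03 to 7.30 in aged and 5.85 to 6.20 in young arrays, a difference of means of 0.63. For the red blood cell list it was 7.51 to 8.73 and 7.27 to 7.95 (0.51). Differences of the remaining overlapping lists lay between -0.099 (suprabasal keratinocytes) and 0.092 (Langerhans and myeloid cells). The part of these differences in the Per1 and Per2 values was not tested.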

How the data were processed

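RNA of EpSCs from 48 mice was measured on 1-colour Affymetrix arrays, 1 mouse per array and 4 per age and time. The labels give extraction with TRizol, amplification with the WTA2 kit and a biotin label. Values are deposited on the log2 scale, 1 per probe set, and the authors made them with RMA, per the submitters' processing notes. RMA corrects background, brings the arrays to one distribution and summarises probes, so a shift common to all genes would be removed. The sources used here do not give its version, nor whether both ages were normalised in 1 run.

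Of 45141 probe sets, 28898 carry exactly 1 symbol in the platform annotation, 551 several, and 15692 are not in it. Per gene the probe set of highest mean was used; the lowest 25% of gene means (under 3.96) were left out as dim, leaving 12823 genes. All 3 members passed.

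limma 3.58.1 (R 4.3.3; lmFit, then eBayes) was run on all arrays, with a 24 h cosine and sine per age, or with 1 mean per age and time. Adjustment was by Benjamini-Hochberg over the genes tested, threshold 0.05. Contrasts at each time were adjusted within that time. Amplitude and peak errors are by the delta method. The fits were tested on simulated data. The number of arrays limits the precision.

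The members, gene lists and tests were chosen with earlier results of these data known. Named genes are the members, the 5 genes most like each (predicted genes and clone names left out), and up to 3 genes of each fixed list by smallest p. Klf9, the fourth of its list by p, is also among the 5 most like Per1. Sgk1, Nr3c1, Fosb, Egr1, Npas2 and Nr1d2 were named after their values were seen. The partner Nr1d1 was not analysed here.

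Replicate numbers 1 to 4 are shared by the groups. Residuals of same-numbered arrays correlated by -0.00074 on average and those of other arrays by 0.00091, with same-numbered pairs down to -0.46. The numbers were therefore not treated as pairs. An average near 0 cannot show whether some groups share a pairing, since pairs of opposite sign cancel. The alternatives were other filters, the mean of all probe sets, each other probe set, median centring, array weights, cyclic loess, robust eBayes with a trend, a replicate block, a 12 h pair added to the rhythm fit, each age alone and each array left out. Removal of the 4 arrays of lowest weight, of each time of day, and the test of that 12 h pair itself were chosen after seeing the data.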

Additional observations from a re-analysis of the deposited data

Results flagged for a closer look

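In 3 of 36 groups of 4 mice (3 genes, 2 ages and 6 times), 1 mouse stood far from the other 3, with a gap to its nearest neighbour that exceeded the Dixon limit for 4 values. Chance gives about 1 such group in 20. All 3 were in Per2, and in each the far mouse was the lowest. The gap was 0.899 of the range in aged cells at ZT0 (5.35, nearest 6.29), 0.907 in young cells at ZT4 (4.97, nearest 5.50) and 0.897 in young cells at ZT20 (5.78, nearest 6.28). Without aged ZT0 replicate 4, the mouse at 5.35, the Per2 difference at ZT0 was 0.82 and passed (limma, adjusted p = 0.00748), against 0.57 and 0.104 with it. That mouse was not low in Per2 alone. It was also the lowest of its group in Per1 (8.79, nearest 9.66), Wee1 (9.25, nearest 10.29), Klf9, Tsc22d3, Tent5b and Rgcc. In Per3 (5.42) and Pdk4 (6.48) it was the highest.

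The daily course of Per1 differed between aged and young cells (limma interaction of age and time, adjusted p = 0.0230). In the course of Per1 the difference between the ages was 0.88 at ZT4 and -0.45 at ZT8.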

How the results depend on the processing

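The ZT4 calls of Per1 and Per2 held in all 48 fits that left out 1 array (difference 0.72 to 1.02, adjusted p up to 0.0175, and 1.00 to 1.39, up to 0.0034) and in all other alternatives run for them (0.80 to 0.97 and 1.13 to 2.26, the top value from the second Per2 probe set, dim in young mice). The replicate block changed 1 call: the Per2 course difference passed (adjusted p = 0.0346; 0.0243 for Per1). That of Per2 (0.0521 as reported) also passed with more dim genes removed (the lower 50%, 0.0461), all probe sets averaged (0.0176), median centring (0.0460), cyclic loess (0.0343), array weights (0.0147), probe set 1417602_PM_at (0.0275), without the 4 arrays of lowest weight (0.0297) and without ZT0 (0.0330), and ranged from 0.0102 to 0.140 with 1 array left out. The Per1 course ranged from 0.00223 to 0.0567 with 1 array left out, and was 0.265 without ZT4 and 0.208 without ZT8. The aged variation of Per1 ranged from 0.0125 to 0.0802 and was 0.0594 with cyclic loess, 0.0996 with each age alone, and 0.0899, 0.0793, 0.0628 and 0.176 without ZT4, ZT12, ZT16 and ZT20. The Per1 level (0.20) passed without ZT0 (0.31) and ZT8 (0.34), and ranged from 0.16 to 0.23 with 1 array left out, passing without aged ZT0 replicate 4 (0.23, adjusted p = 0.0465).

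Signs that turned belong to differences not past the test: Per2 at ZT12 (0.13 with the mean of all probe sets, 0.28 with 1417602_PM_at) and ZT16 (0.030, 0.092, and 0.061 with array weights); the Per3 amplitude (-0.10 with 1460662_PM_at, -0.17 with 1421086_PM_at, -0.0082 without ZT0) and level (-0.057 without ZT20). Per3 also turned at ZT0 (0.24 with 1442243_PM_at), at ZT4 (0.031 with cyclic loess, 0.069, 0.041 and 0.11 with other probe sets), at ZT12 (-0.015, -0.24 and -0.43) and at ZT16 (0.085 with array weights, 0.25 with 1442243_PM_at). With 1 array left out Per1 at ZT12 spanned -0.15 to 0.065, Per2 at ZT12 -0.19 to 0.16 and at ZT16 -0.13 to 0.080, and Per3 at ZT4 -0.17 to 0.14 and at ZT16 -0.30 to 0.12. Deviations of Per2 and Per3 had r of 0.031 to 0.38 (0.038, 0.24 and 0.35 between) with other probe sets, those of Per3 and Fos -0.12 with 2, and those of Per1 and Tsc22d3 -0.074 in young mice. Causes were not tested. Array weights, which count outlying arrays less, called 1573 genes for the course difference against 332 (540 without the 4 arrays). Per1 at ZT8 passed with array weights (-0.59, adjusted p = 0.00859). With SEs of 0.18 to 0.35 per time of day, a difference of 0.57 (Per2 at ZT0) did not pass.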

Other observations

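At ZT20, as at ZT4 (3.28% and 6.14% of all genes), the aged mice were above all young mice in Wee1 (10.19, 10.17, 9.75 and 10.24 in aged, against 9.66, 9.17, 9.52 and 9.49 in young mice) and in Tent5b (7.71, 8.08, 7.14 and 7.84 in aged, against 6.63, 6.48, 6.35 and 6.70 in young mice). The fold of aged over young was 1.55 for Wee1 and 2.22 for Tent5b at that time. Rgcc, also higher in aged cells at ZT4, had -0.035 at ZT20 on the log2 scale and Klf9 0.073, and both overlapped there. At ZT8 the Per1 difference of aged minus young was -0.45 on the log2 scale and did not pass (limma, adjusted p = 0.247). That of Tsc22d3 was -1.98 there, that of Fkbp5 -1.85, that of Pdk4 -0.68 and that of Klf9 -0.39. Wee1, Rgcc and Tent5b had -0.28, -0.17 and -0.16. At ZT12 the Per1 difference was -0.044, while Tsc22d3 had -0.998, Fkbp5 -0.994, Pdk4 -0.388 and Klf9 -0.390. Whether Per1 changed together with these genes was not tested.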
